A study of Homo sapiens with 18 samples.

Results

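The genes described here are the numbered zinc finger (ZNF) genes that lie outside chromosome 19, in NCI-H1299 lung cancer cells made to overexpress 1 of 4 T-box transcription factors. They were chosen by symbol and position: protein-coding genes named ZNF followed by a number, on an autosome other than 19, kept where 10 or more of the 18 libraries had over 5 counts. Of the 249 such genes that were counted, 217 passed this filter, among 15576 genes tested of 63677 in the table. Their measured levels served only for the filter on low counts. The study asked which genes respond when TBX2, TBX3, TBX4 or TBX5 is raised by transient transfection in NCI-H1299, a line grown from a lymph node metastasis of a human non-small cell lung cancer and known to lack p53. There were 3 libraries for each T-box factor, named by the plasmid (TBX2, TBX3, TBX4, TBX5), and 6 control libraries, 3 titled Ctl and 3 titled EV, which were pooled as controls. The plasmids carried human Flag-tagged TBX2 and TBX4, human HA-tagged TBX3 and mouse HA-tagged Tbx5. Lipofectamine reached a part of the cells, so each transfected library held RNA of transfected and untransfected cells together. The time of harvest is not given in the sources used here.

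ZNF genes form the largest family of transcription factors in the human genome. Each protein carries a row of C2H2 zinc fingers, short loops that hold a zinc ion between cysteines and histidines and read DNA, or less often RNA. Many of them also carry a KRAB domain, which recruits TRIM28 (KAP1) and through it the histone methyltransferase SETDB1 and HP1 proteins to silence nearby chromatin, above all at transposable elements, while others carry a SCAN domain, which pairs zinc finger proteins with one another, or neither. Chromosome 19 holds the densest clusters of KRAB genes, and the genes outside it sit in smaller clusters or alone. T-box factors bind DNA through a domain that prefers a GGTGTG core, and TBX2 and TBX3 are known mainly as repressors, TBX4 and TBX5 mainly as activators.

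Total counts ranged from 7365221 to 11743179 per library, of which the 217 genes took 0.280% to 0.578%. Each transfected T-box gene was raised in its own libraries, with 27704 to 47916 TBX2 counts against 31 to 56 in the controls, 135416 to 320890 TBX3 counts against 12 to 34, and 85197 to 109159 TBX4 counts against 0 to 1. Human TBX5, which reads of the mouse Tbx5 plasmid match only in part, had 1161 to 1302 counts in the TBX5 libraries and 0 in the controls. The library taken as TBX4 c by the number and letter in its title carries TBX5 at the end of that title, and it held 85197 TBX4 counts and 1 TBX5 count. A single gene without a symbol (ENSG00000266658) took between 10.7% of counts, in TBX3 library c, and 53.5%, in TBX5 library b. Of the markers of the labelled lung adenocarcinoma, the epithelial KRT8 (119 to 613 counts) and KRT18 (292 to 1155) were present in every library, with VIM at 4051 to 13492, while KRT19, EPCAM, NKX2-1 and the surfactant genes SFTPA1, SFTPB and SFTPC had no more than 9 counts in any library, as had the blood, endothelial and fibroblast markers PTPRC, CDH5, COL1A1, COL3A1 and DCN. In these bulk samples fewer cells of a type and less RNA per cell cannot be told apart.

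Levels are given in CPM, that is, counts divided by the library's TMM-scaled size in the usual unit, and changes as log2 fold changes with their standard error (SE) from edgeR's quasi-likelihood test. A gene is said to have risen or fallen where its Benjamini-Hochberg adjusted p over all 15576 genes was under 0.1. The 4 comparisons share the same 6 control libraries and are therefore given side by side. In the controls the mean level of the 217 genes ran from 0.718 to 133 CPM with a median of 10.4 CPM, beside 10.5 CPM for all tested genes. Their expression was thus neither high nor low for this line, but 101 of them averaged under 100 counts per library and 5 under 10. Per kilobase of exon, the highest in the controls were ZNF664 (16.8 CPM per kb), ZNF217 (14.3), a partner of the CoREST repressor complex that is amplified in breast cancer, and ZNF732 (13.4). The lowest among those averaging at least 3 CPM over all 18 libraries were ZNF469 (0.231 CPM per kb), a gene mutated in brittle cornea syndrome, ZNF19 (0.334) and ZNF410 (0.375), the activator of CHD4. ZNF664 and ZNF732 passed the test in none of the 4 comparisons, with log2 fold changes between -0.06 and 0.09 and between -0.15 and -0.04.

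More of these genes rose than fell with each T-box factor. With TBX2, 80 of the 217 genes rose (36.9%) and 13 fell (5.99%), where 17.0% of all tested genes rose and 15.6% fell. With TBX3, 53 rose (24.4%) and 3 fell (1.38%), beside 8.47% and 6.40% of all tested genes. With TBX4, 26 rose (12.0%) and 6 fell (2.76%), beside 6.97% and 6.07%. Without the library whose title ends in TBX5 19 rose and 5 fell with TBX4, beside 5.08% and 3.81%. With TBX5, 28 rose (12.9%) and 4 fell (1.84%), beside 6.55% and 6.12%. The share of the ZNF genes that rose was thus above that of all tested genes in each comparison, and the share that fell was below it. The changes were small: among the genes that passed the test, the median size of the log2 fold change was 0.44, 0.35, 0.41 and 0.37, from TBX2 to TBX5.

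Many of these calls were lost when 1 library was left out. Fewer libraries also give the test less power. Of all tested genes, those that rose with TBX5 went from 1021 to 592 without TBX5 library c. When each library was left out in turn, 55 of the 80 genes that rose with TBX2 and 5 of the 13 that fell passed every time. For TBX3 26 of 53 and 1 of 3 did, for TBX4 8 of 26 and 2 of 6, and for TBX5 6 of 28 and 1 of 4.

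The shift was also seen in the list as a whole. The median log2 fold change over all 217 genes was 0.14, 0.15, 0.064 and 0.089 in the same order, whereas the median over all tested genes lay between -0.0058 and -0.0013. A positive log2 fold change was found for 156, 167, 135 and 139 of the 217 genes. Their summed level was 3921 to 4021 CPM in the 6 controls, 4280 to 4458 CPM in the TBX2 libraries, 4376 to 4449 in the TBX3 libraries, 4005 to 4124 in the TBX4 libraries and 4107 to 4220 in the TBX5 libraries. The TBX2, TBX3 and TBX5 libraries all lay above the highest control on this sum, and the lowest TBX4 library lay within the controls. The median over the genes of the difference from the control mean, on the log2(CPM + 0.5) scale, was between -0.018 and 0.021 in each control, 0.13 to 0.16 in the TBX2 libraries, 0.12 to 0.16 in the TBX3 libraries, 0.063 to 0.065 in the TBX4 libraries and 0.078 to 0.10 in the TBX5 libraries. For the 229 ZNF genes tested on chromosome 19 the medians were 0.19, 0.24, 0.17 and 0.20 for TBX2 to TBX5, with 86, 87, 67 and 61 genes up and 10, 3, 3 and 3 down. No test of the difference between the 2 lists was run.

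**Figure D1:**
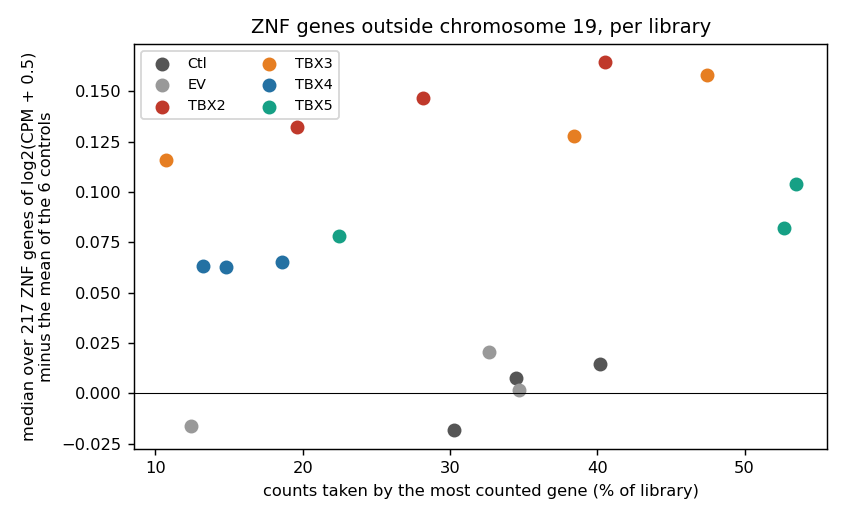
Median shift of the 217 ZNF genes in each of the 18 libraries, as log2(CPM + 0.5) minus the mean of the 6 controls (vertical axis), against the share of the library's counts taken by the most counted gene (horizontal axis, %). Each point is 1 library: the 6 controls (EV and Ctl) lie between -0.018 and 0.021, and all 12 TBX libraries lie above them, at 0.063 or more, whether the most counted gene took 10.7% or 53.5% of counts.

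The counts of calls moved with the scaling of libraries, in which 1 gene took up to 53.5% of counts. With plain library totals instead of TMM, 24 genes rose and 2 fell with TBX2, and none passed in edgeR with TBX3 (8 higher and 3 lower at an unadjusted p under 0.05) or TBX5 (4 higher and 20 lower). Of all tested genes 5.35% rose and 1.43% fell with TBX2 under these totals. With TBX3 0.225% rose, and with TBX5 0.244% rose and 0.353% fell. With the same totals 75 of the genes rose and 1 fell with TBX4, against 26 and 6, beside 17.7% and 0.212% of all tested genes. With totals taken without the most counted gene 21 rose and 10 fell with TBX4, beside 5.75% and 7.97%. For TBX5 those totals gave 19 up and 6 down, against 28 and 4, beside 5.1% and 7.78%. Plain totals put the median of all tested genes at 0.25 for TBX4 and at -0.31 for TBX5, and the median of the ZNF genes above that of all genes stayed at 0.070 and 0.091. Leaving out 1 library also lowered 3 of the counts. Without TBX3 library c 35 genes rose with TBX3, beside 6.07% of all tested genes. Without TBX4 library a 15 rose with TBX4, beside 4.53%. Without TBX5 library c or TBX5 library b 10 or 15 rose with TBX5, beside 3.8% or 4.41%. The 10 of 217 genes that rose without TBX5 library c were thus near the share of all genes. The few falls changed likewise, from 3 to 1 with TBX3 (without TBX3 library c), from 6 to 3 with TBX4 (without TBX4 library a) and from 4 to 1 with TBX5 (without TBX5 library b or EV library a). Of all tested genes 5.36%, 3.4%, 3.54% and 5.07% fell in these fits, in that order. On the log2 scale KRT8 fell by 0.79 with TBX2, by 0.45 with TBX3 and by 0.23 with TBX4 and rose by 0.26 with TBX5, KRT18 fell by 0.56 and 0.41 with TBX2 and TBX3, VIM fell by 0.31 and 0.24. The KRT8 call was lost with TBX4 without TBX4 library c (adjusted p = 0.23) and with TBX5 in 4 of 9 fits that left out a library (adjusted p up to 0.40). The part of such changes in the results for the ZNF genes was not tested.

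The 2 kinds of control did not differ past the threshold for any of the 217 genes. Of all tested genes 0.282% were higher and 0.103% lower in EV than in Ctl. At an unadjusted p under 0.05, 10 ZNF genes were higher and 8 lower in EV, the lowest adjusted p was 0.265, and DESeq2 also called 0. The labels do not say whether libraries of a group came from separate cultures, so the p-values measure the spread between these libraries, which may be technical.

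To show where the T-box and other promoter letters lie, the stretch from 250 bases before to 50 bases after the start of each gene was read from GRCh37 for all protein-coding genes, on the gene's strand. The full T-box half-site AGGTGTGA, on either strand, was found in 0 of the 217 promoters, beside 0.588% of the promoters of tested genes and 0.96% of all 19894. The core GGTGTG was found in 31 (14.3%), beside 14.1% and 16.4%. It stood in 9 of the 80 genes that rose with TBX2 (11.2%), 1 of the 13 that fell, 11 of the 53 that rose with TBX3 (20.8%), 4 of the 26 with TBX4 and 3 of the 28 with TBX5. The ETS-type letters CCGGAAGT, common in promoters of housekeeping genes, were found in 35 (16.1%), beside 9.06% of tested genes and 6.16% of all. They stood in 19 of the 80 genes that rose with TBX2 (23.8%), 14 of the 124 that did not pass (11.3%), and 2 of the 13 that fell (15.4%). With the other three factors the genes that rose and those that did not pass lay closer, at 22.6% and 14.3% with TBX3, 19.2% and 15.7% with TBX4, and 17.9% and 15.7% with TBX5. Other letters were searched too: TGACGTCA was in 3.69% of the ZNF promoters, CACGTG in 6.45%, AAGATGGC in 3.69% and GCGCATGC in 6.45%, beside 3.46%, 10.2%, 5.8% and 5.81% of tested genes. Median promoter GC content was 63.7% for the ZNF genes and 66.3% for tested genes. A match is a run of letters and not a measured binding site.

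Promoters of 6 genes named below are shown as examples: ZNF79 (chr9:130186411-130186710, plus strand), ZNF484 (chr9:95640271-95640570, minus), ZNF292 (chr6:87865033-87865332, plus), ZNF408 (chr11:46722331-46722630, plus), ZNF519 (chr18:14132385-14132684, minus) and ZNF425 (chr7:148823367-148823666, minus), all GRCh37 and written 5′ to 3′ along the gene. A link between these letters and a change in level was not tested. Capitals mark the core GGTGTG or its other strand CACACC, and the ETS-type letters CCGGAAGT or ACTTCCGG. ZNF79 holds both, ZNF484 and ZNF292 hold a core alone, ZNF408 holds the ETS-type letters alone, and ZNF519 and ZNF425 hold neither in this window.
ZNF79: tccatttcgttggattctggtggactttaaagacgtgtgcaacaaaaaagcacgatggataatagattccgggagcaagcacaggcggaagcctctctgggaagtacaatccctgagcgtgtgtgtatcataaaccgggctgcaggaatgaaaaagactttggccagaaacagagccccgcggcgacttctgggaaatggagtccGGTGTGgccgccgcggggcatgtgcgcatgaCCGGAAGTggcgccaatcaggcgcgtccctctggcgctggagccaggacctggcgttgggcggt
ZNF484: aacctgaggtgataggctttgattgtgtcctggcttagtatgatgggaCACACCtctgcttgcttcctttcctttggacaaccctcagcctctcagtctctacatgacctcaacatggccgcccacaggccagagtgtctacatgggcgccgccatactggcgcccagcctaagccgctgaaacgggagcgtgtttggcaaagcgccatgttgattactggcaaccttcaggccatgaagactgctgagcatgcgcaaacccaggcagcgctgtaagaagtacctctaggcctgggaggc
ZNF292: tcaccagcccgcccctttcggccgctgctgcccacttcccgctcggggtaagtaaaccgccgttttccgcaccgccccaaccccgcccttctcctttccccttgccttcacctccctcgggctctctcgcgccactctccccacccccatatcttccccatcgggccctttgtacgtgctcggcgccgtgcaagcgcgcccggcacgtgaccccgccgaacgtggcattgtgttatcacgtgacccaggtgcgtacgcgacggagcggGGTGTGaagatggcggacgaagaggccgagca
ZNF408: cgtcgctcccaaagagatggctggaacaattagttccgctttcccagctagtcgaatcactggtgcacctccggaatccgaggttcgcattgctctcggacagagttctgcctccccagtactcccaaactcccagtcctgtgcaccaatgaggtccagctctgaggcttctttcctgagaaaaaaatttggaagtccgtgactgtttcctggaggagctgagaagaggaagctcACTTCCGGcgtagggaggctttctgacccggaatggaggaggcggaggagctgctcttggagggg
ZNF519: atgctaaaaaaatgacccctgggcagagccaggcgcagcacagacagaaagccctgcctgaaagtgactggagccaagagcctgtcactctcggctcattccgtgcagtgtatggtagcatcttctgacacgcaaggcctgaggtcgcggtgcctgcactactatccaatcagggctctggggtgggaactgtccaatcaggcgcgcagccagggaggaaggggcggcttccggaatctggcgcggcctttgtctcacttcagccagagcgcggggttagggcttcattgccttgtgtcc
ZNF425: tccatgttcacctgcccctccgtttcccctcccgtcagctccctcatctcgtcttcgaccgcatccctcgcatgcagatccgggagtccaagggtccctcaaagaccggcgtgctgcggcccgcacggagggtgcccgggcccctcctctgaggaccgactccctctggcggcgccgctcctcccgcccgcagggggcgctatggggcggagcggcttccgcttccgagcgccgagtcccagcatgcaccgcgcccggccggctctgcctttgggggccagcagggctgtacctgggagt

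TBX2 gave the widest range, from -1.08 (ZNF84, with 1 to 5 counts in the TBX2 libraries and a call lost in 6 of 9 fits that left out a library, named after its value was seen) to 2.69 (ZNF425). ZNF425 (ENSG00000204947), a KRAB gene on chromosome 7, is one of those without either set of letters in its promoter. Its level was 0.457 to 1.08 CPM in the controls (median 0.673, 4 to 14 counts) and 4.13, 5.63 and 4.55 CPM with TBX2. The TBX2 libraries stood well above every control, with a log2 fold change of 2.69 ± 0.24 (SE, adjusted p = 1.7e-08). With TBX4 it measured 1.76, 1.95 and 1.57 CPM (log2 fold change 1.25 ± 0.27, adjusted p = 0.0036), and with TBX5 0.999, 2.18 and 2.61 CPM (1.26 ± 0.36, adjusted p = 0.032). TBX4 libraries lay above the controls, TBX5 library a lay within them, and the TBX5 call was lost without TBX5 library c or b (adjusted p up to 0.21). With TBX3 it measured 0.917, 1.36 and 0.703 CPM, with 2 of the 3 libraries inside the control range.

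ZNF280A, which lies within the immunoglobulin lambda region of chromosome 22 (chr22:22868060-22874613), rose most with TBX2 among the genes averaging at least 3 CPM over all 18 libraries, a limit it met only through the T-box libraries, since its mean was 2.72 CPM in the controls. It measured 2.22 to 3.32 CPM in the controls (median 2.64) and 6.78, 9.86 and 8.93 CPM with TBX2 (log2 fold change 1.63 ± 0.16, adjusted p = 1.3e-07). It also rose with TBX4, at 5.77, 5.76 and 4.26 CPM (0.94 ± 0.16, adjusted p = 0.00042), and with TBX5, at 5.77, 3.37 and 4.28 CPM (0.76 ± 0.21, adjusted p = 0.023). All these libraries lay above the highest control, TBX5 library b by the least, and the TBX5 call was lost without TBX5 library a (adjusted p = 0.30). With TBX3 it measured 2.88, 3.92 and 3.52 CPM, overlapping the controls, and its log2 fold change of 0.32 ± 0.19 did not pass.

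Further down that ranking with TBX2 stood ZNF821, ZNF684, ZNF697 and ZNF572. ZNF821 went from 3.07 to 4.62 CPM in the controls to 7.69, 7.75 and 8.44 CPM (1.03 ± 0.14, adjusted p = 1.2e-05). Other annotated genes cover 34.9% of its exon bases, and the counts were not split by strand, so part of its reads may belong to a neighbour. ZNF684, a KRAB gene, went from 2.22 to 3.88 CPM (median 3.3) to 6.09, 5.84 and 6.82 CPM with TBX2 (0.97 ± 0.18, adjusted p = 0.00028) and to 7.13, 6.62 and 5 CPM with TBX4 (0.99 ± 0.17, adjusted p = 0.00029). No library of either group fell within the controls. ZNF697 went from 5.39 to 7.88 CPM to 12.4, 12.3 and 13.3 CPM with TBX2 (0.95 ± 0.12, adjusted p = 3.8e-06), and ZNF572 from 2.86 to 3.47 CPM to 4.82, 7.45 and 5.03 CPM (0.91 ± 0.17, adjusted p = 0.00036).

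Among the genes above 3 CPM, the falls with TBX2 were smaller than these rises. ZNF519, a KRAB gene on chromosome 18, was tightly measured, at 44.6 to 49.3 CPM in the controls (median 47.5) and at 28.9, 28.7 and 29.2 CPM with TBX2. The 2 groups did not overlap, and the log2 fold change was -0.71 ± 0.07 (adjusted p = 5.6e-08). With TBX3 it also fell, to 35.8, 37.1 and 39 CPM (-0.34 ± 0.06, adjusted p = 0.0011). With TBX4 it measured 57.2, 49.3 and 46.6 CPM, on both sides of the control range's top and not past the test (0.11 ± 0.06). With TBX5 it measured 50.7, 59.5 and 61 CPM, above all controls, and it rose (0.26 ± 0.07, adjusted p = 0.025), a call lost without TBX5 library c (adjusted p = 0.16) or b.

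ZNF367 measured 42.2 to 49.4 CPM in the controls (median 45). It fell with TBX2, to 30.9, 32.9 and 27.4 CPM (-0.57 ± 0.08, adjusted p = 7.7e-06). It fell with TBX4, to 37.8, 32.4 and 36.5 CPM (-0.36 ± 0.07, adjusted p = 0.001), and with TBX5, to 36.6, 36.3 and 30.5 CPM (-0.39 ± 0.08, adjusted p = 0.0027). The libraries of these 3 groups all lay below the lowest control, whereas the TBX3 libraries, at 42.6, 44.2 and 43.5 CPM, lay inside the control range. ZNF395, a factor induced by low oxygen, went with TBX2 from 7.31 to 9.66 CPM to 5.4, 6.54 and 5.84 CPM (-0.53 ± 0.14, adjusted p = 0.0056). ZNF141, a KRAB gene near the tip of chromosome 4, went from 27.6 to 32 CPM to 24.9, 24.3 and 27.3 CPM (-0.25 ± 0.08, adjusted p = 0.019), and its call was lost with the EV controls alone (adjusted p = 0.19) and with plain library totals. ZNF74, a KRAB gene of the DiGeorge region of chromosome 22, went from 7.65 to 10.8 CPM to 6.32, 7.35 and 6.49 CPM (-0.38 ± 0.13, adjusted p = 0.039), and its call was lost without TBX2 library a (adjusted p = 0.15) or c.

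**Figure D2:**
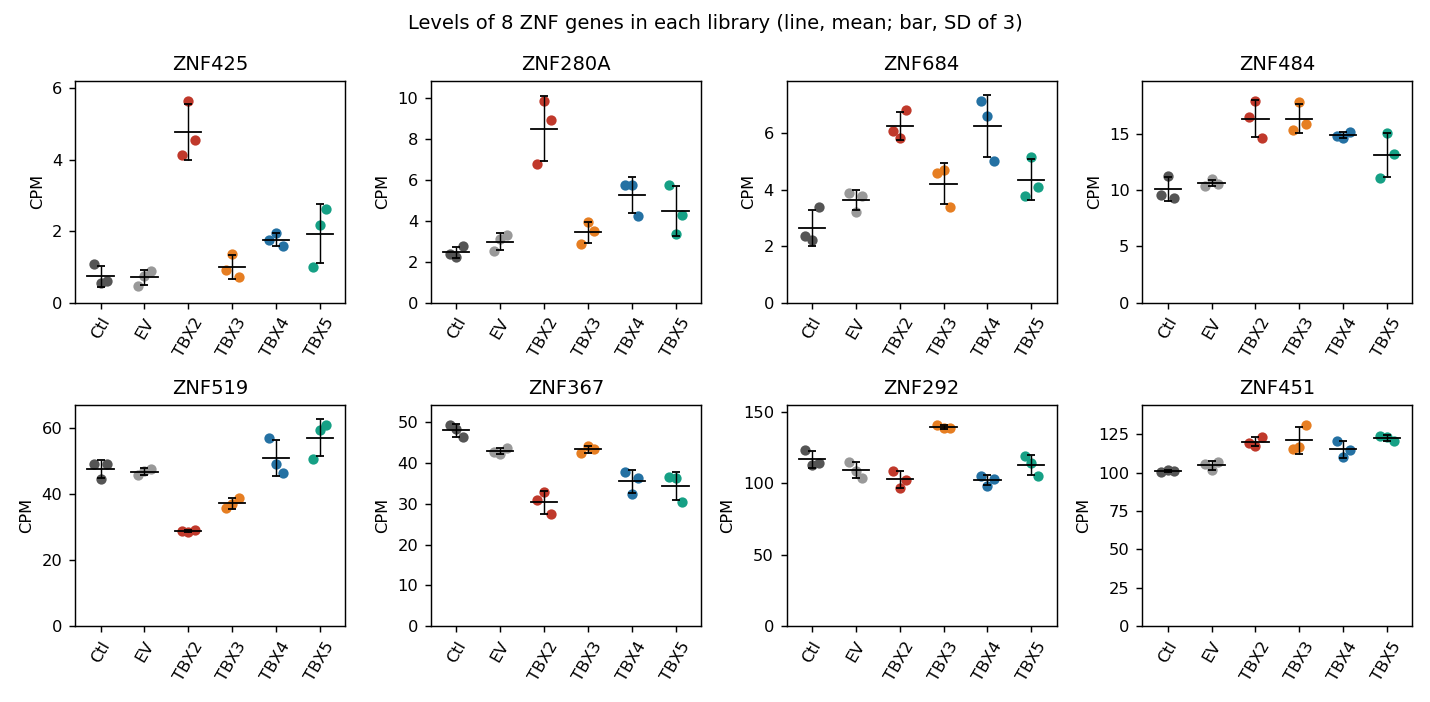
Level in CPM (vertical axis) of 8 ZNF genes in the 3 libraries of each group (horizontal axis), 1 point per library, with the group mean as a line and the SD of 3 libraries as a bar. ZNF425 and ZNF280A are highest with TBX2, ZNF519 is lowest with TBX2 at 28.7 to 29.2 CPM against 44.6 CPM or more in the controls, and ZNF292 is highest with TBX3.

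The changes with TBX3 stayed within -0.82 and 0.78. The genes that rose most were ZNF408, ZNF251, ZNF79, ZNF484 and ZNF654. ZNF408, which is mutated in an inherited disease of the retinal vessels, measured 3.17 to 4.23 CPM in the controls (median 3.75) and 7.6, 4.53 and 6.89 CPM with TBX3. All 3 libraries lay above the controls, library b narrowly, and the log2 fold change was 0.78 ± 0.16 (adjusted p = 0.0021). It rose by as much with TBX2 (0.78 ± 0.16, adjusted p = 0.000655). With TBX4 it measured 5.77, 5.6 and 4.44 CPM (0.49 ± 0.15, adjusted p = 0.034), a call lost without TBX4 library a (adjusted p = 0.16) or b.

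ZNF251, a KRAB gene of the cluster at the end of chromosome 8, was at 9.25 to 10.7 CPM in the controls and at 15.9, 19 and 17.2 CPM with TBX3. No TBX3 library came near the controls (0.74 ± 0.09, adjusted p = 8.3e-06), and with TBX2 it measured 14.4, 15 and 13.3 CPM (0.47 ± 0.10). ZNF79, whose promoter held both sets of letters, went from 3.57 to 5.58 CPM to 8.39, 6.79 and 7.24 CPM with TBX3 (0.73 ± 0.14, adjusted p = 0.0015). ZNF654 went from 6.84 to 10.8 CPM to 14.9, 15.4 and 14.6 CPM (0.65 ± 0.11, adjusted p = 0.0005). All 3 TBX3 libraries were above all 6 controls for each of these genes.

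ZNF484, a KRAB gene whose promoter held a core on the other strand, measured 9.32 to 11.3 CPM in the controls (median 10.5). It rose with TBX2, to 16.5, 17.9 and 14.6 CPM (0.67 ± 0.10, adjusted p = 2.6e-05), with TBX3, to 15.3, 17.8 and 15.9 CPM (0.65 ± 0.10, adjusted p = 8e-05), and with TBX4, to 14.8, 14.6 and 15.2 CPM (0.52 ± 0.09, adjusted p = 0.00041). The 9 libraries lay above every control. With TBX5 it measured 11.1, 15.1 and 13.2 CPM, library a lay within the controls, and the log2 fold change of 0.31 ± 0.12 did not pass. Only 3 genes fell with TBX3: ZNF519 (above), ZNF25 at -0.67 ± 0.17, from 4.79 to 6.64 CPM to 3.15, 4.98 and 3.23 CPM (adjusted p = 0.013), and ZNF883 at -0.82 ± 0.27, from 1.69 to 2.63 CPM to 1.57, 1.21 and 0.914 CPM (adjusted p = 0.048). TBX3 library b of ZNF25 lay inside its control range, and both calls were lost without TBX3 library c (adjusted p = 0.13 and 0.33), that of ZNF883 also without library b. ZNF25 and ZNF883 were named after their values were seen, because so few genes fell.

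With TBX4 the range was -1.02 to 1.48, and both ends came from genes with few counts, named after their values were seen. ZNF596 had 12 to 31 counts in the controls (1.15 to 2.18 CPM) and 45 to 64 counts with TBX4 (4.73, 4.98 and 4.17 CPM), all above the controls (1.48 ± 0.18, adjusted p = 5.2e-06). ZNF385D had 12 to 28 counts in the controls (1.29 to 2.65 CPM) and 9 to 13 with TBX4 (1.04, 0.701 and 0.926 CPM), all below (-1.02 ± 0.29, adjusted p = 0.025), a call lost without TBX4 library b (adjusted p = 0.15). ZNF214, also named after its values were seen, went from 1.07 to 1.71 CPM to 3.2, 2.65 and 3.52 CPM with TBX4 (1.11 ± 0.20, adjusted p = 0.00075) and to 3, 3.17 and 2.79 CPM with TBX5 (1.06 ± 0.24, adjusted p = 0.0066).

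Beside ZNF280A, ZNF684, ZNF484 and ZNF408, the larger rises with TBX4 above 3 CPM included ZNF267, a KRAB gene near the centromere of chromosome 16. It measured 15.4 to 20.4 CPM in the controls (median 16.7) and 26.7, 22.2 and 20.6 CPM with TBX4. The third of these libraries lay just above the top control (0.42 ± 0.10, adjusted p = 0.007), and the call was lost without TBX4 library a (adjusted p = 0.102). Among the genes that fell with TBX4, ZNF318, a co-regulator of the androgen receptor, went from 60.5 to 71.3 CPM to 55.9, 54.1 and 53.9 CPM (-0.26 ± 0.06, adjusted p = 0.0077). ZNF598, the ubiquitin ligase that marks ribosomes stalled on an mRNA, went from 22.1 to 26.6 CPM to 19.4, 20.9 and 20.3 CPM (-0.26 ± 0.08, adjusted p = 0.033), a call lost without TBX4 library a (adjusted p = 0.16). With plain library totals both differences were near 0 (0.0081 and 0.0055), but these totals raised the median of all tested genes from -0.0058 to 0.25, so both genes stayed below that median.

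With TBX5 the range was -0.74 to 1.26. Beside ZNF280A, few genes above 3 CPM changed by much. ZNF138, a KRAB gene, went from 10.9 to 14.6 CPM to 17, 17.9 and 18.2 CPM (0.44 ± 0.10, adjusted p = 0.0099). ZNF165, a SCAN gene known as a cancer-testis antigen, went from 4.7 to 6.67 CPM to 6.77, 8.33 and 7.07 CPM, just above the controls (0.42 ± 0.16, adjusted p = 0.099). ZNF239, the human counterpart of mouse Mok2, fell from 9.66 to 11 CPM to 7.77, 8.53 and 7.82 CPM (-0.35 ± 0.12, adjusted p = 0.078). The other falls were ZNF48 (-0.45, named after its value was seen), ZNF367 (above) and ZNF496 (-0.24), a SCAN gene whose protein binds the histone methyltransferase NSD1. Of the 9 fits that left out 1 library, the call was lost in 7 for ZNF165, in 6 for ZNF239 and ZNF48 and in 5 for ZNF496, with the highest adjusted p, between 0.22 and 0.37, without TBX5 library a or b.

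ZNF436, ZNF267, ZNF451 and ZNF117 stand in the study's list of genes common to its T-box groups. They were picked from these same libraries, so their directions here are no independent evidence. ZNF451, which works as a SUMO ligase, measured 101 to 107 CPM in the controls, and 118 to 123, 115 to 131, 110 to 121 and 121 to 124 CPM in the TBX2 to TBX5 groups. Its log2 fold changes were 0.22, 0.24, 0.16 and 0.25, each with an SE of 0.05 to 0.06. ZNF436, a KRAB gene, measured 12.1 to 14 CPM in the controls, and 16.4 to 17.4, 19.5 to 20.6, 14.8 to 17.7 and 16.6 to 18.2 CPM in the same order (0.39, 0.63, 0.29 and 0.42). ZNF117 measured 14.6 to 16.2 CPM in the controls, and 18.2 to 20.6, 17.4 to 23.1, 18.4 to 19.8 and 19.7 to 21 CPM with TBX2, TBX3, TBX4 and TBX5 (0.35, 0.32, 0.31 and 0.41). Each of the 12 T-box libraries lay above the control range for ZNF451, ZNF436 and ZNF117. For ZNF267 the TBX5 libraries measured 19, 22.8 and 25.5 CPM, of which library a lay within the controls (0.34 ± 0.12, adjusted p = 0.072). Calls were lost without 1 library for ZNF451 with TBX3 (library c, adjusted p = 0.103) and TBX4 (library a, 0.25, or c), ZNF436 with TBX4 (library c, 0.22), ZNF117 with TBX3 (library b, 0.20) and ZNF267 with TBX3 (library a, 0.12) and TBX5 (library c, 0.32, and 4 others).

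The proteins differ in what they carry, and so did the counts. Of 214 genes with a protein sequence, 68 held the letters by which KRAB genes were first sought, 95 held these or a broader spelling added after the data were seen, and 119 held neither. With TBX2 46 of the 95 KRAB genes rose and 4 fell (median log2 fold change 0.25), against 33 up and 9 down of the 119 without (0.087). With TBX3 the counts were 24 up and 2 down (0.17) against 29 up and 1 down (0.15). With TBX4 they were 15 up and 0 down (0.11) against 10 up and 6 down (0.0074), and with TBX5 18 up and 1 down (0.13) against 9 up and 3 down (0.062). From TBX2 to TBX5 the shares that rose were 48.4%, 25.3%, 15.8% and 18.9% of the 95. Of the 119 they were 27.7%, 24.4%, 8.4% and 7.56%, beside 17.0%, 8.47%, 6.97% and 6.55% of all tested genes. In rises, the 119 were thus near all tested genes with TBX4 and TBX5. Among the 68, the counts were 31 up and 4 down with TBX2 (median 0.20), 16 and 2 with TBX3 (0.14), 10 and 0 with TBX4 (0.099) and 12 and 0 with TBX5 (0.14). The medians of the 95 and the 119 lay furthest apart with TBX2 and closest with TBX3. The difference between the 2 kinds was not tested.

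Sorted by the number of C2H2 fingers, 95 genes had 10 or more, 71 had 5 to 9, 41 had 1 to 4 and 7 had none of the standard spacing. With TBX2 48, 21, 10 and 0 of these rose, and 3, 5, 5 and 0 fell. With TBX3 the numbers that rose were 25, 20, 7 and 1. With TBX4 they were 20, 3, 2 and 0, and with TBX5 19, 4, 4 and 0. Of all tested genes 17.0%, 8.47%, 6.97% and 6.55% rose with TBX2 to TBX5. Each class of fewer than 10 fingers lay below this share with TBX4. With TBX5 the class of 5 to 9 fingers lay below it and that of 1 to 4 above it. The median log2 fold change of the genes with 10 or more fingers was 0.23, 0.17, 0.13 and 0.16 for TBX2 to TBX5, and that of the genes with 1 to 4 fingers was 0.040, 0.099, -0.018 and 0.00061. KRAB genes and genes of many fingers are largely the same kind of protein, and the 2 features were not separated here. In 3 classes of control level, of 73, 72 and 72 genes from the lowest to the highest, 26, 31 and 23 rose with TBX2, 6, 22 and 25 with TBX3, 13, 7 and 6 with TBX4, and 8, 10 and 10 with TBX5. The lowest class held the fewest rises with TBX3 and the most with TBX4. The share of all tested genes that rose in each class is not given, and passing the test depends on counts. These counts are therefore not read as a trait of the ZNF genes.

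**Figure D3:**
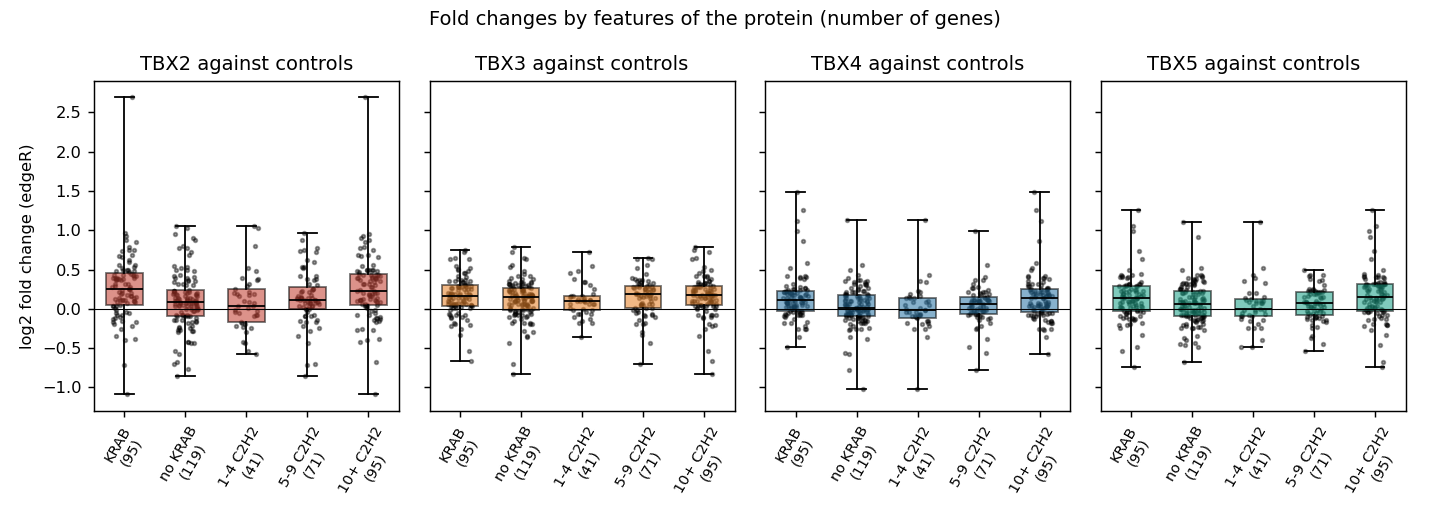
Log2 fold change against the 6 controls (vertical axis) of ZNF genes with and without KRAB letters and with 1 to 4, 5 to 9 and 10 or more C2H2 fingers (horizontal axis, number of genes in brackets), 1 panel for each T-box factor. Boxes span the quartiles with the median as a line, whiskers the whole range, and points are genes; with TBX2 the median is 0.25 for KRAB genes and 0.087 for the others.

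GC content was followed because it can shape counts. The genes' GC content ran from 32.2% to 69.3% with a median of 45.2%, beside 46.8% for all tested genes. In each of 3 GC classes their median log2 fold change lay above that of the tested genes of the same class, with TBX2 at 0.16, 0.17 and 0.10 from the lowest to the highest class against 0.035, 0.0089 and -0.038. With TBX3 it was 0.12, 0.20 and 0.13 against 0.022, -0.0017 and -0.023. With TBX4 it was 0.089, 0.081 and 0.014 against -0.00050, 0.00061 and -0.012, and with TBX5 0.13, 0.10 and 0.023 against 0.024, 0.0024 and -0.036. By exon length, 25, 27 and 28 genes rose with TBX2 in the shortest, middle and longest of 3 classes, 15, 24 and 14 with TBX3, 10, 10 and 6 with TBX4, and 9, 10 and 9 with TBX5. The share of all tested genes that rose in each length class is not given, so these counts are not read as a trait of the ZNF genes.

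The 18 SCAN genes gave 7 up and 1 down with TBX2, 3 and 0 with TBX3, 1 and 0 with TBX4, and 4 and 1 with TBX5. The shares that rose were 38.9%, 16.7%, 5.56% and 22.2%, beside 17.0%, 8.47%, 6.97% and 6.55% of all tested genes, so with TBX4 the share was near that of all genes. None of the 4 rises with TBX5 held in all 9 fits that left out a library: ZNF165 was lost in 7, ZNF24 in 4, ZNF197 in 3 and ZNF396 in 2. With TBX3 ZNF202 was lost in 4 and ZNF445 in 1, and with TBX2 ZNF397 in 6 and ZNF213 in 2. ZNF24, a repressor of VEGF, went from 51.3 to 59.4 CPM in the controls to 68.2, 79.2 and 73.9 CPM with TBX2 (0.39 ± 0.07, adjusted p = 0.00011), all above the controls. ZNF394 went from 17.5 to 21.1 CPM to 26.6, 27.2 and 29.2 CPM with TBX3 (0.56 ± 0.08, adjusted p = 3.4e-05), again with no overlap. ZNF396 was low, at 0.343 to 1.18 CPM and 3 to 15 counts in the controls, and rose with TBX2 to 1.72, 1.81 and 1.62 CPM (1.06 ± 0.32, adjusted p = 0.018), with TBX4 by 1.13 (lost without TBX4 library a, adjusted p = 0.13) and with TBX5 by 1.11 (lost without TBX5 library a, 0.16, or c). The gene that fell with TBX2 was ZNF263 (-0.28, adjusted p = 0.07), of whose exon bases 52.6% are shared with other genes and whose call was lost in 6 of 9 fits, with the highest adjusted p (0.27) without TBX2 library a.

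Genes whose products work in chromatin or transcription complexes, 23 in all, gave 7, 10, 2 and 2 up with TBX2 to TBX5 and 0 down in each. These were 30.4%, 43.5%, 8.70% and 8.70% of the list, near the share of all tested genes with TBX4 (6.97%) and TBX5 (6.55%) and above it with TBX2 (17.0%) and TBX3 (8.47%). ZNF335, part of a histone H3K4 methyltransferase complex, went from 28.4 to 34.1 CPM to 43.1, 40.8 and 39.9 CPM with TBX2 (0.43 ± 0.07, adjusted p = 6.9e-05), and rose by 0.26 with TBX4 (lost without TBX4 library b, adjusted p = 0.17) and 0.28 with TBX5. Among the partners of ZMYND8, ZNF532 rose with TBX2 (0.35), ZNF592 with TBX3 (0.28) and ZNF687 with TBX2 (0.21) and TBX3 (0.20). ZNF518B, which binds the methyltransferase G9a, rose with TBX2 (0.21) and TBX3 (0.35), and so did ZNF281, a partner of MYC, by 0.19 and 0.30, and ZNF384, known from leukaemia fusions, by 0.30 and 0.28. ZNF608 went from 5.55 to 8 CPM to 9.57, 10.1 and 9.28 CPM with TBX3 (0.48 ± 0.12, adjusted p = 0.013), all above the controls, and ZNF131 rose by 0.26. The TBX2 calls were lost for ZNF687 without TBX2 library a (adjusted p = 0.22) or b, for ZNF281 without TBX2 library c (0.20), a or 2 controls, and for ZNF518B without TBX2 library c (0.17) or b. Leaving out TBX3 library b ended the TBX3 calls of ZNF592 (0.16) and ZNF384 (0.15). The TBX3 call of ZNF687 was lost in 7 of 9 fits that left out a library (adjusted p up to 0.53, without TBX3 library c). It was also lost with DESeq2 (adjusted p = 0.21) and with either kind of control alone.

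Of the 9 genes whose products bind RNA or serve the ribosome, 1 rose with TBX2, 2 with TBX3 and none with TBX4 or TBX5, and 1 fell with TBX4 (ZNF598, above). With TBX2 this was 11.1% of the list, below the 17.0% of all tested genes, and it is no result about the list. ZNF385A, an RNA-binding partner of p53, rose with TBX2 (0.80 ± 0.21, adjusted p = 0.0074). ZNF622, which helps the large ribosomal subunit mature, rose with TBX3 from 10.9 to 17.8 CPM to 17.8, 20.4 and 17.9 CPM (0.39 ± 0.11, adjusted p = 0.028), and ZNF106 rose with TBX3 by 0.16 (adjusted p = 0.048). These TBX3 calls were lost without TBX3 library b (ZNF622, adjusted p = 0.12) and TBX3 library c (ZNF106, 0.16). Among the most abundant genes of the family, ZNF207, which binds BUB3 at the kinetochore, and ZNF638, a splicing factor, did not pass in any of the 4 comparisons, with log2 fold changes of 0.08 to 0.12 and -0.02 to 0.06. The genes at either end of the level per kilobase gave ZNF217, which rose with TBX3 from 82 to 97.3 CPM to 105, 112 and 107 CPM (0.29 ± 0.06, adjusted p = 0.0029) and with TBX5 by 0.21 (lost without TBX5 library a, adjusted p = 0.21, or c), and ZNF410, which measured 1.61 to 2.86 CPM in the controls and 3.9, 4.43 and 3.57 CPM with TBX2 (0.73 ± 0.19, adjusted p = 0.007). ZNF410 averaged 2.42 CPM in the controls and met the limit of 3 CPM only through the T-box libraries, so its place among these extremes lends no support to its rise.

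The cofactors through which KRAB proteins silence chromatin are no ZNF genes, and their counts ran mostly towards lower levels with TBX2 and TBX4. Of 19 of them, 1 rose and 8 fell with TBX2 (median log2 fold change -0.10), 2 rose and 1 fell with TBX3 (-0.023), 1 rose and 5 fell with TBX4 (-0.071), and 0 rose and 3 fell with TBX5 (-0.056). Of all tested genes 17.0% rose and 15.6% fell with TBX2, and 8.47% and 6.40% with TBX3. These shares were 6.97% and 6.07% with TBX4, and 6.55% and 6.12% with TBX5. The TBX3 counts of the cofactors were near the shares of all genes, and no test of the list was run. TRIM28 went from 132 to 147 CPM in the controls to a mean of 120 CPM ± 12.4 (SD, n = 3) with TBX2 (-0.24 ± 0.06, SE, adjusted p = 0.0093) and fell by 0.17 with TBX5. SETDB1 fell with TBX2 (-0.23 ± 0.08, adjusted p = 0.031), as did the HP1 genes CBX5 (-0.25), CBX3 (-0.33) and CBX1 (-0.26), the methyltransferase EHMT1 (-0.23), TASOR of the HUSH complex (-0.24) and TRIM24 (-0.18). CBX5 also fell with TBX3 (-0.24), TBX4 (-0.22) and TBX5 (-0.22). The 2 kinds of control lay apart for CBX5, at a mean of 436 CPM in EV and 491 CPM in Ctl, and for TASOR, at 89.3 and 97.8 CPM. In edgeR's test of EV against Ctl neither passed (adjusted p = 0.38 and 0.52). The 4 T-box groups averaged 391 to 400 CPM for CBX5. CHD3, a NuRD subunit, rose with TBX2 (0.19) and TBX3 (0.31). Some calls were lost in fits that left out 1 library, given here with the library of the highest adjusted p. With TBX2 these were SETDB1 (TBX2 library c, adjusted p = 0.19), TRIM24 (TBX2 library b, 0.23) and CHD3 (TBX2 library a, 0.12). CBX5 was lost with TBX3 (library b, 0.11), TBX4 (library a, 0.16) and TBX5 (library c, 0.29), and TRIM28 with TBX5 (library c, 0.36). With TBX4 the falls of TASOR (library b, 0.43), ATF7IP (library a, 0.36), TRIM24 (library c, 0.22) and CBX1 (library c, 0.15) were lost too. With TBX5 that of CBX3 was lost (library c, 0.11). No cofactor fall with TBX3, TBX4 or TBX5 thus held with every library left out in turn. Of 9 such fits, TRIM24 was lost in 6 with TBX2, and TRIM28 in 7 with TBX5. CBX5 was lost in 4 with TBX5 and in 2 with TBX4.

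Of the 217 genes 87 lie in 14 chains of at least 4 neighbours whose starts are within 1 Mb of the next. With TBX2 32 of these 87 rose and 3 fell, against 48 up and 10 down of the 130 others. With TBX3 the counts were 22 and 1 against 31 and 2, with TBX4 7 and 0 against 19 and 6, and with TBX5 13 and 3 against 15 and 1. The shares that rose were thus close for TBX2 and TBX3, and the difference was not tested. Of all tested genes 17.0%, 8.47%, 6.97% and 6.55% rose with TBX2 to TBX5, and 15.6%, 6.40%, 6.07% and 6.12% fell. The 7 of 87 chain genes that rose with TBX4 were near the share of all genes.

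The genes named from these chains were chosen after their values were seen, where no rule above already named them. In the chain of 4 beside the histone genes on chromosome 6 (chr6:26634611-28057341) all 4 genes rose with TBX2. ZNF391 went from 13.1 to 16.2 CPM to 24.5, 22.9 and 26.3 CPM (0.77 ± 0.09, adjusted p = 7.5e-07), and ZNF165 from 4.7 to 6.67 CPM to 7.81, 11.1 and 11 CPM (0.87 ± 0.14). ZNF184, a KRAB gene, went from 23.5 to 28.3 CPM to 29.9, 32.3 and 33.4 CPM (0.32 ± 0.07), and ZNF322 from 5.6 to 8.49 CPM to 10.2, 10.9 and 8.28 CPM (0.53 ± 0.14). Only TBX2 library c of ZNF322 fell within the controls. Each of these TBX2 calls held with any 1 library left out. With TBX3, TBX4 and TBX5 1 gene of the 4 rose each time.

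In the pericentromeric chain on chromosome 7 (chr7:63505812-64866049), which holds ZNF727, ZNF736, ZNF680, ZNF107, ZNF138, ZNF273, ZNF117 and ZNF92, 7, 2, 3 and 5 of the 8 genes rose with TBX2 to TBX5 in turn. ZNF680 was the exception with TBX2, at 24 to 27.4 CPM in the controls and 27.9, 26.8 and 25.8 CPM with TBX2 (0.04 ± 0.07). Its neighbour ZNF736 went from 37.6 to 45 CPM to 48.8, 47.7 and 62.3 CPM (0.38 ± 0.08, adjusted p = 0.0012). Leaving out TBX2 library c ended the TBX2 calls of ZNF107 (adjusted p = 0.13) and ZNF92 (0.24), and leaving out TBX2 library a that of ZNF727 (0.45). These genes are close copies of one another, and reads shared between copies may have been left uncounted. In a chain further along chromosome 7 all 4 of ZNF789 (0.29), ZNF394 (0.56), ZNF655 (0.25) and ZNF3 (0.20) rose with TBX3. ZNF3 lost this call in 5 of 9 fits with a library left out (highest adjusted p 0.33, without TBX3 library b). In the pair of chains on chromosome 10, of 4 and 5 genes, none rose with any T-box factor. Of all tested genes 17.0%, 8.47%, 6.97% and 6.55% rose with TBX2 to TBX5. With so few genes this absence is not read as a trait of the 2 chains. The chain at the tip of chromosome 4 had a median of -0.19 with TBX2, with 1 gene up and 1 down of 4.

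**Figure D4:**
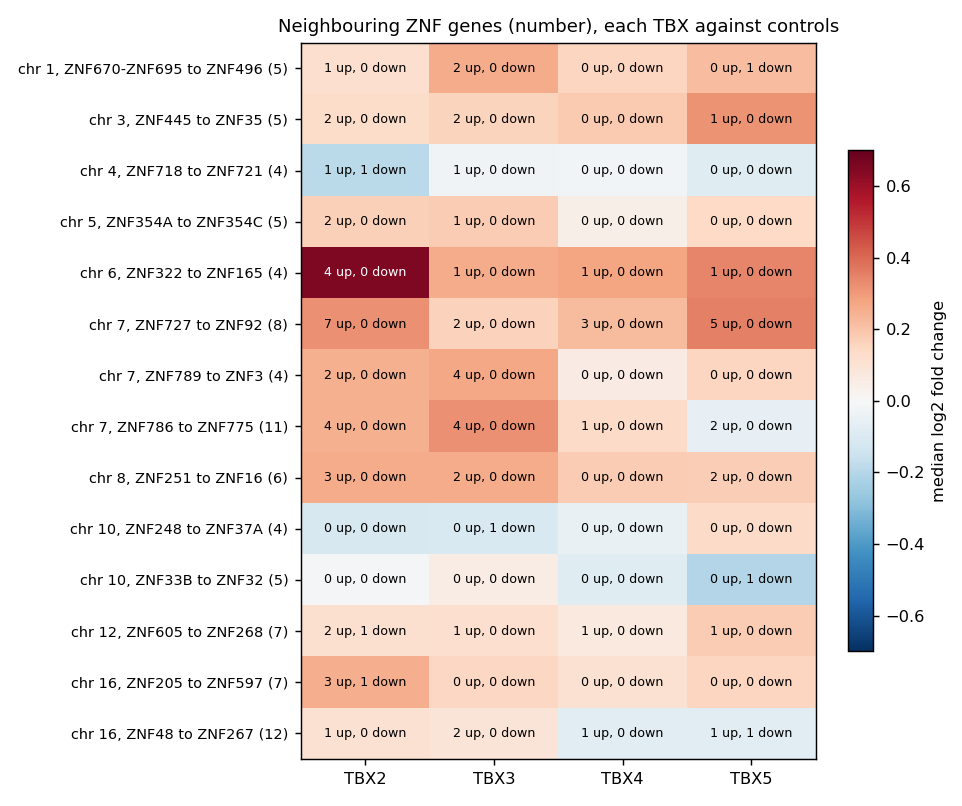
Median log2 fold change against the 6 controls (colour) of the genes in each of 14 chains of neighbouring ZNF genes (rows, number of genes in brackets) with each T-box factor (columns), with the number of genes up and down written in each cell. The chromosome 6 chain from ZNF322 to ZNF165 has 4 of 4 genes up with TBX2, and both chromosome 10 chains have 0 up throughout. Of all tested genes 17.0%, 8.47%, 6.97% and 6.55% rose with TBX2 to TBX5.

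TBX2 and TBX3 were compared directly in 1 fit of all 18 libraries. Between them 29 genes were higher with TBX2 (13.4%) and 18 lower (8.29%), beside 8.01% and 7.51% of all tested genes. Higher with TBX2 were ZNF425 (2.37 ± 0.30, adjusted p = 2.7e-06), ZNF280A (1.31 ± 0.19, adjusted p = 2.8e-05) and ZNF483, a gene with SCAN and KRAB domains. ZNF483 measured 15.6, 15.4 and 16.7 CPM with TBX2 and 9.96, 9.05 and 9.21 CPM with TBX3 (0.75 ± 0.12, adjusted p = 5.9e-05), and the controls, at 9.55 to 12.1 CPM, overlapped the TBX3 libraries only. Leaving out TBX2 library b brought the 47 genes that differed down to 31.

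Lower with TBX2 than with TBX3 were ZNF292, ZNF367 and ZNF143. ZNF292, whose promoter held a core just after the start, is mutated in a form of intellectual disability. It measured 109, 96.9 and 102 CPM with TBX2 and 141, 139 and 139 CPM with TBX3 (-0.44 ± 0.07, adjusted p = 3.5e-05), and the controls, at 103 to 123 CPM, lay below all TBX3 libraries. ZNF367 was lower with TBX2 by 0.50 ± 0.08 (adjusted p = 0.00011). ZNF143, an activator of many housekeeping and small nuclear RNA promoters, measured 16.5, 19.5 and 15.4 CPM with TBX2 and 23.3, 25.2 and 26.4 CPM with TBX3 (-0.53 ± 0.10, adjusted p = 0.00091), and the controls, at 14.5 to 20 CPM, lay below the TBX3 libraries too.

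**Figure D5:**
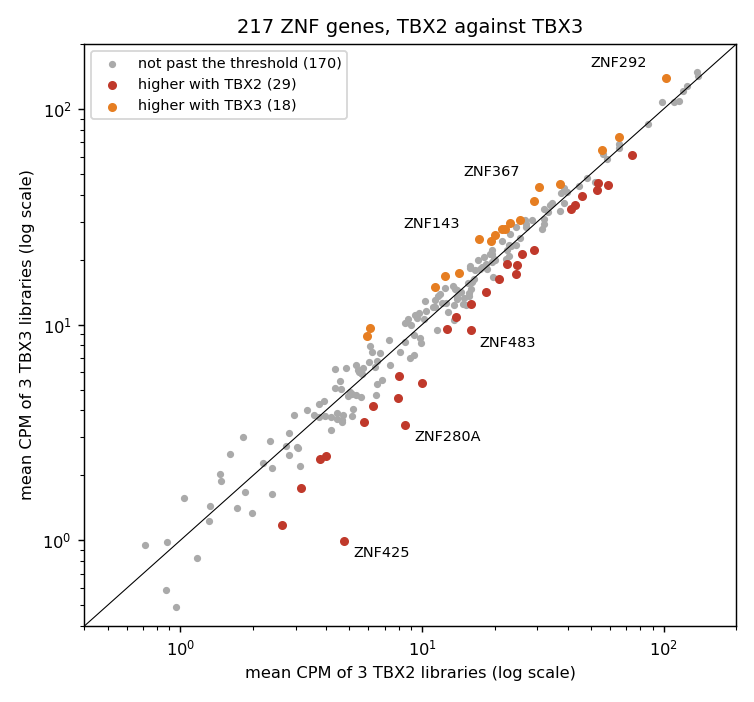
Mean level of each of the 217 ZNF genes in the 3 TBX2 libraries (horizontal axis, CPM, log scale) and the 3 TBX3 libraries (vertical axis, CPM, log scale), 1 point per gene, with the line of equal levels. Coloured points are the 29 genes higher and 18 lower with TBX2 in edgeR's test; ZNF425 lies furthest below the line.

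Between TBX4 and TBX5 no ZNF gene passed the threshold, and of all tested genes 0.109% were higher and 0.430% lower with TBX4. At an unadjusted p under 0.05, 5 ZNF genes were higher and 9 lower with TBX4, the lowest adjusted p was 0.377, and DESeq2 also called 0. A small amount of T-box RNA was also counted outside its own group. TBX4 itself had 6 to 19 counts in each library of the other three T-box groups and at most 1 in the controls, and TBX3 measured 6.57 to 6.85 CPM in the TBX4 libraries and 7.74 to 13.2 CPM in the TBX5 libraries against 1.37 to 3.33 CPM in the controls. Its part in the results for the ZNF genes was not tested.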

How the data were processed

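RNA of NCI-H1299 cells was sequenced in 18 libraries. The authors aligned read pairs to GRCh37 with STAR 2.3.0 and counted them per gene with featureCounts at its default setting, which ignores strand, and they deposited the counts raw, without normalization. Overlapping, antisense and near-identical genes may thus share or lose reads: 58 of the 217 genes share over 10% of their exon bases. Each T-box group (3 libraries) was compared with the 6 pooled controls by edgeR's quasi-likelihood test (edgeR 4.0.16, limma 3.58.1, R 4.3.3) with TMM scaling, Benjamini-Hochberg adjustment over 15576 genes and an adjusted p under 0.1; TBX2 against TBX3 and TBX4 against TBX5 used 1 fit of 6 groups. DESeq2 1.42.0, other scalings, other filters, GC correction, each kind of control alone and each library left out were alternatives, and the test was tried on simulated counts. At these depths 3 counts equal 0.191 to 0.595 CPM. Coordinates, GC and promoters came from the GRCh37 annotation and genome; KRAB and C2H2 letters were sought in proteins translated from the annotated coding parts. KRAB was sought by the letters Y, any, D/E/N, V, M, any, D/E and, added after the data were seen, by these or a broader spelling of the domain's start. Named genes were the 5 with the largest change each way per comparison (no overlap with the controls, at least 3 CPM over all libraries), the study's list, the extremes of level, the 3 smallest p each way between T-box factors, and role lists; genes named outside these rules are marked as such. The genes and lists were chosen with earlier results of these data known. Libraries of a group were checked for duplicates, and the lowest chi-square per degree of freedom was 2.11.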

Additional observations from a re-analysis of the deposited data

Results flagged for a closer look

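Among 35 sets of 6 control values checked, 2 held a library whose gap to its nearest neighbour exceeded Dixon's limit for 6 values, and chance flags about 1 in 20 such sets. ZNF469 measured 1.83 CPM in EV library a against a median of 3.26 and a highest value of 3.97 CPM over the controls, a gap of 0.657 of the range. ZNF143 measured 14.5 CPM in Ctl library a against a median of 18.9 and a highest value of 20.0 CPM, a gap of 0.676 of the range.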

How the results depend on the processing

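With plain library totals, 24 genes rose and 2 fell with TBX2, 0 and 0 with TBX3, 75 and 1 with TBX4, and 0 and 0 with TBX5, and the medians were 0.070 for TBX3, 0.32 for TBX4 and -0.22 for TBX5; 2 genes differed between TBX2 and TBX3 and 82 between TBX4 and TBX5. Of all tested genes 0.989% were higher and 0.0642% lower with TBX2 than with TBX3 under these totals. Between TBX4 and TBX5, 41.8% were higher and 0.077% lower with TBX4. The median of the ZNF genes above that of all genes was 0.14, 0.15, 0.070 and 0.091 under these totals. Under them ZNF598 (0.0055) and ZNF318 (0.0081) with TBX4, and ZNF251 (-0.011), ZNF335 (-0.022), ZNF519 (-0.069), ZNF24 (-0.12), ZNF217 (-0.080) and ZNF451 (-0.058) with TBX5, changed sign, where these totals put the median of all genes at 0.25 with TBX4 and -0.31 with TBX5, a shift of scale common to the genes. With totals taken without the most counted gene, 5 genes fell with TBX3 and 10 with TBX4, and the medians were 0.12, 0.095, 0.039 and 0.057 for TBX2 to TBX5.

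DESeq2 gave 16 up with TBX4 and 1 down with TBX5, and GC correction gave 10 down with TBX4. Of all tested genes these were 4.4%, 4.17% and 7.1%. EV controls alone gave 16 up with TBX4 (median 0.052) and 14 with TBX5, beside 4.82% and 4.56% of all tested genes. Ctl controls alone gave a median of 0.075 with TBX4, and 15 up and 1 down with TBX5, beside 4.33% and 3.33%. Of the calls of genes named by rule that ended with 1 kind of control alone, all but those of ZNF19, ZNF138 and ZNF141 with TBX2 were also lost with some library left out. Without the filter the medians were 0.098 for TBX2, 0.13 for TBX3 and 0.055 for TBX5, with 17 up. With at least 10 counts in every library the TBX4 median was 0.074, and in 1 fit of all libraries 0.069.

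Leaving out 1 library gave 69 to 80 up and 9 to 15 down with TBX2 (median 0.126 to 0.161), 35 to 53 and 1 to 4 with TBX3 (0.128 to 0.164), 15 to 29 and 3 to 9 with TBX4 (0.0568 to 0.0784), 10 to 28 and 1 to 3 with TBX5 (0.0703 to 0.116), 31 to 48 between TBX2 and TBX3, and 0 to 0 between EV and Ctl and between TBX4 and TBX5.

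The replicate letters do not pair the libraries: same-letter deviations correlated at -0.00092 on average (45 pairs, -0.11 to 0.20). A replicate block gave 75 up and 10 down with TBX2, 51 and 3 with TBX3, 21 and 6 with TBX4 (median 0.063) and 26 and 4 with TBX5. Depth limits the 101 genes averaging under 100 counts.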
